A study of Mus musculus with 15 samples.

Results

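The 34 genes described here code for heat shock and endoplasmic reticulum (ER) chaperones and for transcription factors of the same stress pathways. They are 10 cytosolic chaperones and cochaperones, 15 chaperones, folding enzymes and linked proteins of the ER, 3 mitochondrial chaperones, and 6 stress transcription factors or their regulators. A gene was taken by its symbol and represented by the probe set with the highest mean over the 15 arrays, among probe sets to which the array annotation gives 1 symbol. Of the 34 genes 33 were matched, and Hsp90ab1 was not analysed here. A gene was tested where its signal passed a floor of 20, which is 4.32 on the log2 scale, on at least 6 arrays, and 29 of the 33 were tested, among 9257 tested of 18194 genes on the array. All 29 lay over the floor on all 15 arrays, so none of them entered through the higher group alone.

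The arrays measured RNA in scrapings of the colon mucosa of male C57BL/6 mice, an inbred laboratory strain, aged 11 weeks. Heme mice (9) ate for 14 days a diet high in fat (40% of its energy) and low in calcium, to which heme, the iron-porphyrin pigment of red meat, was added at 0.5 umol per g. Control mice (6) ate that diet without heme for the same time. Each array is 1 mouse, and control replicate 5 was not analysed here. The question posed by the series title is how dietary heme changes the turnover of the colon epithelium, and the comparison below is heme against control.

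The median log2 value of an array lay between 3.11 and 3.24, and 9066 to 9319 genes passed the floor per array. All 9 matched colon epithelium markers passed the filter on signal, and their summed level was 16.52 to 16.64 in heme mice against 16.48 to 16.60 in control mice. Single markers did differ in the test used below: 2 were higher in heme mice, Krt20 (0.39 on the log2 scale) and Vil1 (0.18), and 1 was lower, Epcam (-0.20). Hmox1, which opens the heme ring, averaged 8.85 ± 0.78 in heme mice (SD, n = 9) and lay under the floor in all 6 control mice at 3.46 ± 0.32. In 3 mice other markers stood apart: control 2 was rich in smooth muscle and fibroblast RNA, control 4 low in distal colon Hox genes and heme 6 high in interferon response genes. Control 2 also had the highest mean levels of goblet cell (13.40), plasma cell (7.20) and macrophage (6.97) markers of all mice. Control 4 had the highest dividing cell (8.85) and the lowest enteroendocrine (9.30) mean level of the control mice. In a scraping, fewer cells of a type and less RNA per cell cannot be told apart. The number of arrays limits the precision of all values below.

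Chaperones hold newly made or damaged proteins until they fold. In the cytosol the Hsp70 and Hsp90 families do this with DnaJ cochaperones and nucleotide exchange factors, and heat shock factor raises many of them when proteins unfold. In the ER, Hspa5 (BiP) and the protein disulfide isomerases fold secreted and membrane proteins, and the sensors IRE1, PERK and ATF6 answer misfolding through Xbp1, Atf4 and cleaved Atf6. In mitochondria, Hspa9 pulls imported proteins in and the Hspd1 and Hspe1 ring folds them. The colon epithelium is a secretory tissue whose goblet cells fold large amounts of mucin in the ER.

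Promoter letters of these genes are shown first, because several members share the response elements these pathways act through and the expression results below can be set beside them. RefSeq windows of 300 bases around the start of transcription (GRCm38.p6) were found for 27 of the 34 genes. The ER stress response element (ERSE), searched as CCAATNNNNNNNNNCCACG on both strands, lay in the windows of 7 of 13 ER members, of 0 of the other 14 members, and of 37 of all 27025 genes (0.137%). In the lines below, written 5′ to 3′ with 10 flanking bases on each side, capitals mark the fixed letters of the element. The strand is that of the letters printed.
Hspa5, chr2:34772015-34772053, plus strand: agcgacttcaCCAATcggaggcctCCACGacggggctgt
Hsp90b1, chr10:86705628-86705666, minus strand: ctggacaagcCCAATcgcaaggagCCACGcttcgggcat
Hsp90b1, chr10:86705523-86705561, plus strand: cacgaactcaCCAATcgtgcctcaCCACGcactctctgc
Pdia6, chr12:17266481-17266519, plus strand: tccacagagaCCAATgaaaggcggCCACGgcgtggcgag
Calr, chr8:84847065-84847103, plus strand: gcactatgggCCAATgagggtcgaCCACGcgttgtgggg
Canx, chr11:50325790-50325828, minus strand: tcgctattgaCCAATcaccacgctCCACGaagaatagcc
Dnajc3, chr14:118937817-118937855, plus strand: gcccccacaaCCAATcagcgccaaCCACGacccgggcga
Creld2, chr15:88819510-88819548, minus strand: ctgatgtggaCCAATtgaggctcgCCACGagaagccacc

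A shorter form, ERSE-II, searched as ATTGGNCCACG, lay in the windows of Herpud1 and Dnajb11 and of 12 of all 27025 genes (0.0444%). The Herpud1 match is shown, with the fixed letters in capitals.
Herpud1, chr8:94386367-94386397, plus strand: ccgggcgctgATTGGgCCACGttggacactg

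The heat shock element, searched as GAANNTTCNNGAA or TTCNNGAANNTTC, lay in the windows of Hspd1, Hspe1 and Hsph1 and of 179 of all genes (0.662%). Among members with a window these are 2 of 2 mitochondrial and 1 of 7 cytosolic ones, with 0 of 13 ER members and 0 of 5 transcription factors. The Hsph1 match lies past the annotated start. Hspd1 and Hspe1 are neighbours on opposite strands, and 285 bases of their windows are shared. That stretch holds 2 matches that overlap in part. The 2 searched forms are the reverse complement of each other, so each match reads on both strands. Both matches lie in both windows. Each is printed on the strand where it has the first of the 2 forms, beside the gene of that strand, with the fixed letters in capitals.
Hspe1, chr1:55088054-55088086, plus strand: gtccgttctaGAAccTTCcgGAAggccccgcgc
Hspd1, chr1:55088049-55088081, minus strand: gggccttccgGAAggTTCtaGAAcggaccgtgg

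The unfolded protein response element, searched as TGACGTGG, was in 0 of the 27 members with a window and in 193 of all genes (0.714%). The amino acid response element, searched as TGATGCAA or TGATGAAA, was in Chac1 and Herpud1 and in 583 of all genes (2.16%). These matches are letters in a window and are not shown to be sites in use. A window without a match to any of these elements may still hold forms of other spelling.

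Of the 29 tested members 13 rose in heme mice, 3 fell and 13 did not pass the test (limma, adjusted p under 0.05 over all 9257 tested genes). That is 44.8% of members higher, where 27.2% of all tested genes were higher, and 10.3% of members lower, where 26.4% of all tested genes were lower. All 9 heme mice lay above all 6 control mice for 4 members and below them for 0, where these shares over all tested genes were 11.2% and 8.93%. The median difference of the members, heme minus control on the log2 scale, was 0.21, and that of all tested genes was -0.01 with quartiles of -0.25 and 0.25. By compartment the medians were 0.46 for 3 mitochondrial, 0.42 for 7 cytosolic and 0.21 for 15 ER members and -0.17 for 4 transcription factors. The changes were small, and the largest, in Sdf2l1, was 1.75-fold.

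**Figure D1:**
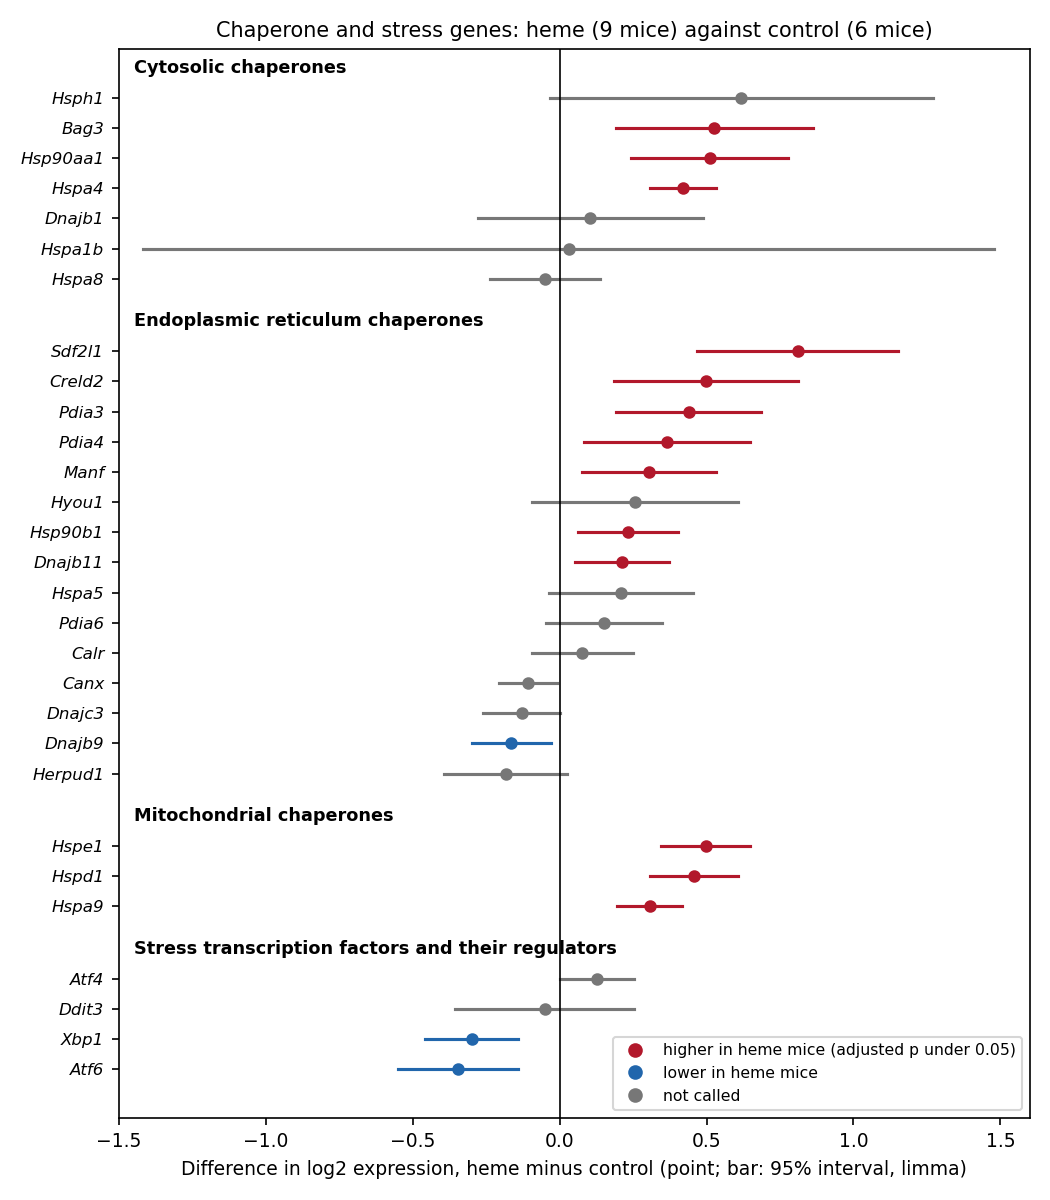
Difference in log2 expression between 9 heme and 6 control mice for the 29 tested members, grouped by compartment, with points for the limma estimate and bars for its 95% interval. The 3 mitochondrial genes have short bars to the right of 0, the ER genes run from -0.18 to 0.81, and Hspa1b has the widest bar.

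All 3 mitochondrial chaperones rose, where 27.2% of all tested genes were higher. Hspe1, the lid of the mitochondrial folding chamber, ranged from 11.71 to 12.18 (median 11.80) in heme mice, against 11.24 to 11.47 (median 11.33) in control mice. Every heme mouse lay above every control mouse, and heme 9 was the highest. The difference was 0.50 ± 0.07 (SE, adjusted p = 3.84e-05, limma), a fold of 1.41.

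Hspd1, which forms the wall of that chamber, ranged from 12.48 to 13.02 (median 12.67) in heme mice, against 12.14 to 12.39 (median 12.24) in control mice. Here too the groups did not overlap. The difference was 0.46 ± 0.07 (adjusted p = 7.41e-05), beside 0.50 for Hspe1, whose promoter window overlaps its own. Hspa9, the mitochondrial Hsp70, ranged from 11.07 to 11.38 (median 11.21) in heme mice, against 10.85 to 10.97 (median 10.91) in control mice. Again all heme mice lay above all control mice, and the difference was 0.31 ± 0.05 (adjusted p = 1.71e-04). The other probe sets over the floor gave differences of the same sign, 0.29 and 0.62 for Hspa9 and 0.42 for the second one of Hspe1.

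**Figure D2:**
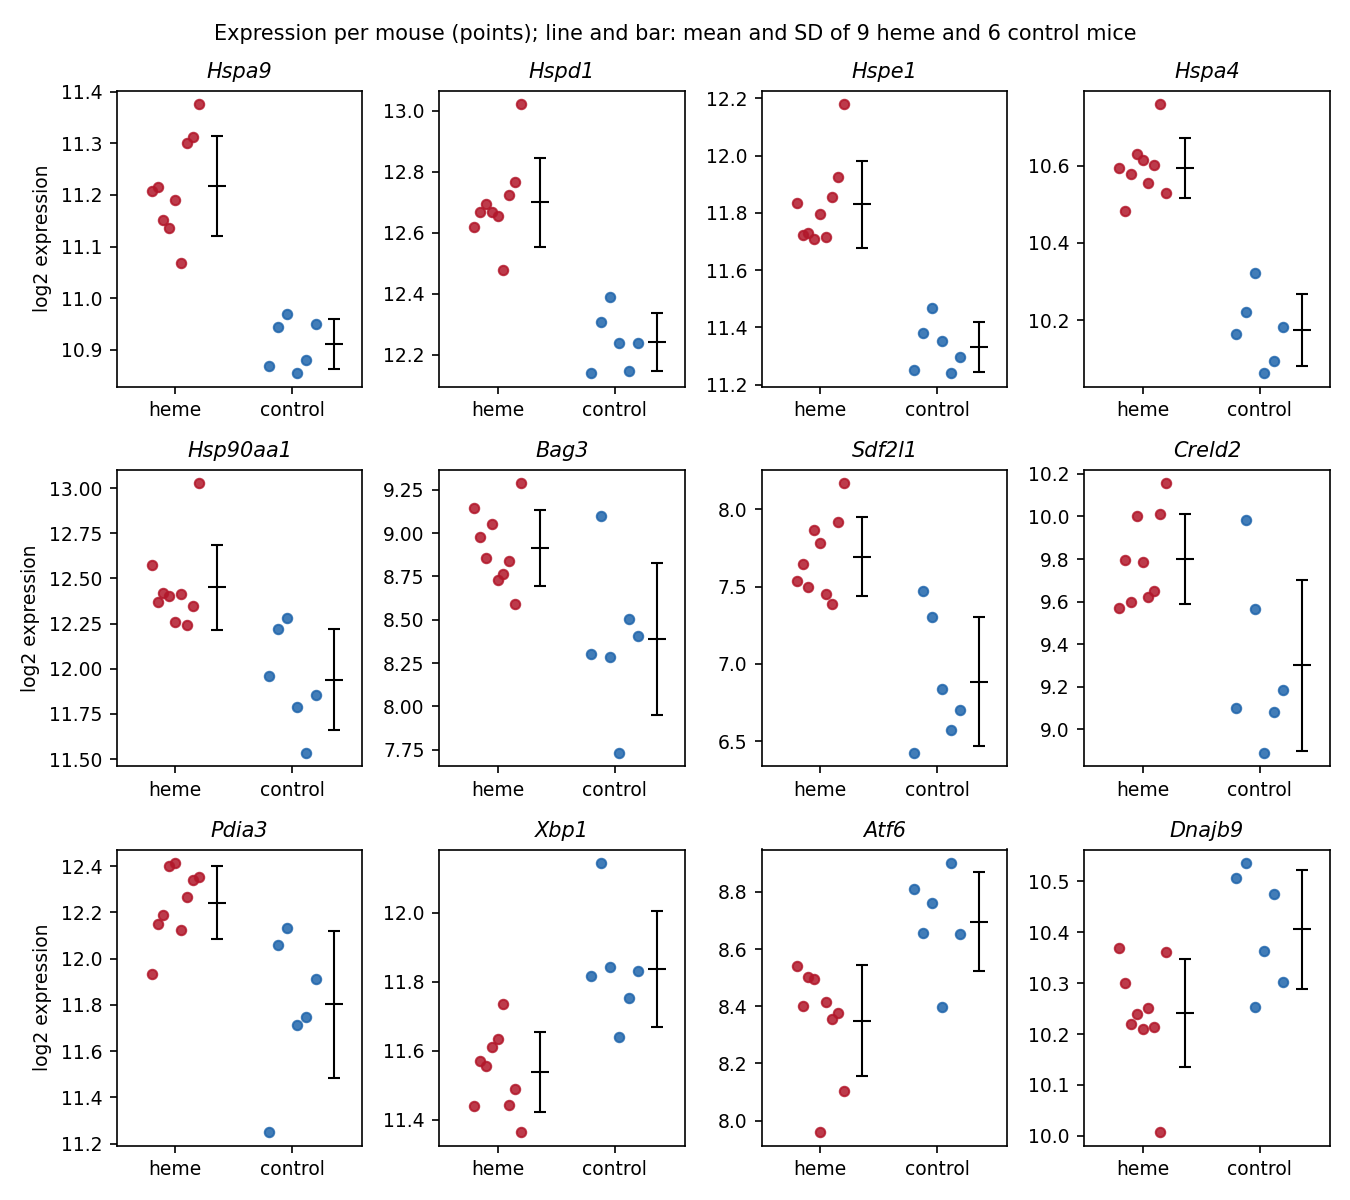
Log2 expression per mouse for 12 of the 16 members that passed the test, heme mice (9, red) left of control mice (6, blue), with a line and bar for the mean and SD; each panel has its own axis, which does not start at 0. Hspa9, Hspd1, Hspe1 and Hspa4 show a gap between the groups, while the other 8 genes overlap.

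In the cytosol 3 of 7 tested members rose and 0 fell (42.9% and 0%, beside 27.2% and 26.4% of all tested genes). Hspa4, a nucleotide exchange factor of the Hsp110 family, ranged from 10.48 to 10.76 (median 10.60) in heme mice, against 10.06 to 10.32 (median 10.17) in control mice. The groups did not overlap, and the difference was 0.42 ± 0.05 (adjusted p = 1.15e-05). A second, dimmer Hspa4 probe set gave 0.15 (adjusted p = 0.186), so the call rests on the brighter one. The mean of all Hspa4 probe sets gave 0.11 (adjusted p = 0.156), and takes in others over the floor on 0 arrays (0.14 and -0.29).

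Hsp90aa1, the inducible cytosolic Hsp90, ranged from 12.24 to 13.03 (median 12.40) in heme mice, against 11.54 to 12.28 (median 11.91) in control mice. All but 2 heme mice lay above all controls, and heme 9 stood well above the rest. The difference was 0.51 ± 0.13 (adjusted p = 0.00320), and the 3 Hsp90aa1 probe sets over the floor gave 0.51 to 0.62.

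Bag3, a cochaperone that links Hsp70 to autophagy, ranged from 8.59 to 9.29 (median 8.86) in heme mice, against 7.73 to 9.10 (median 8.35) in control mice. The groups overlapped through 1 control mouse, control 2 at 9.10. The difference was 0.53 ± 0.16 (adjusted p = 0.0108).

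Hsph1, another Hsp110 protein, did not pass the test at a difference of 0.62 ± 0.31 (adjusted p = 0.1005). It ranged from 9.19 to 10.27 (median 9.74) in heme mice, against 8.00 to 10.37 (median 9.11) in control mice. Control 2 was the highest of all mice, and without it the difference was 0.87 (adjusted p = 0.0140), past the threshold. Hspa8, the constitutive Hsp70, differed by -0.05, with a 95% interval of -0.24 to 0.14. Its 4 probe sets over the floor ran from -0.05 to 0.97, and the highest of these differences came from the dimmest.

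Hspa1b, the stress-inducible Hsp70, averaged 9.74 ± 1.57 in heme mice (SD, n = 9) and 9.71 ± 1.14 in control mice (n = 6). Its difference was 0.03 ± 0.68 (adjusted p = 0.974), with a 95% interval of -1.42 to 1.48, so a 2-fold change in either direction lies inside it. Dnajb1, the main DnaJ partner of the inducible Hsp70, differed by 0.10 ± 0.18 (adjusted p = 0.647). Hspa1a and Hspb1 were each over the floor on 5 arrays and were not tested. Hspa1a and Hspa1b are near-identical genes, and their probe sets may bind both transcripts.

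Hspa1a averaged 4.79 ± 1.94 in heme mice and 4.13 ± 1.49 in control mice. Hspb1, a small heat shock protein, averaged 3.69 ± 0.41 in heme mice and 4.69 ± 0.95 in control mice, where control 2 reached 6.56. Smooth muscle cells are rich in Hspb1, and control 2 also had the highest mean level of smooth muscle markers, 7.43, against 4.53 to 5.61 in the other control mice. The part of these cells in the Hspb1 values was not tested.

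Hspa1b and Dnajb1 varied with a running number that each sample's name carries, from 1 to 18, whose meaning the labels do not state. Heme mice hold even numbers and control mice odd ones, so both groups are spread over the range. Hspa1b lay between 10.44 and 12.48 in the 5 mice numbered 1 to 6, heme and control alike, and between 8.31 and 9.21 in the 10 mice with later numbers. The boundary at number 6 was chosen after these values were seen. Hspa1a had the same split, with 4.75 to 8.16 in the first 5 mice and 3.12 to 4.0 in the later ones.

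In a fit with both diet and running number, 2 of 29 members had a downward trend and 0 an upward one, where 0.281% of all tested genes were called downward and 0.14% upward. Dnajb1 changed by -0.055 ± 0.009 per number (log2, SE, adjusted p = 0.0195, limma), and with each mouse left out in turn its adjusted p ran from 0.0191 to 0.0497. Hspa1b changed by -0.200 ± 0.036 per number (adjusted p = 0.0303), and with each mouse left out its adjusted p ran from 0.0254 to 0.0915. The Hspa1b trend no longer passed without heme 1, 2, 3, 7, 8 or 9 or control 2, at -0.21 to -0.17 per number. Hsph1, at -0.086 per number, did not pass (adjusted p = 0.0520), and did without control 3 (-0.085) or heme 9 (-0.102). The other members had no called trend, among them the inducible Hsp90aa1 at -0.0055 per number (adjusted p = 0.900) and Bag3 at -0.013 (adjusted p = 0.768). With the number as a covariate, Hsph1 differed between the diets by 0.68 (adjusted p = 0.0100), past the threshold, and the counts of ER and mitochondrial members that rose were 7 and 3, as without it.

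**Figure D3:**
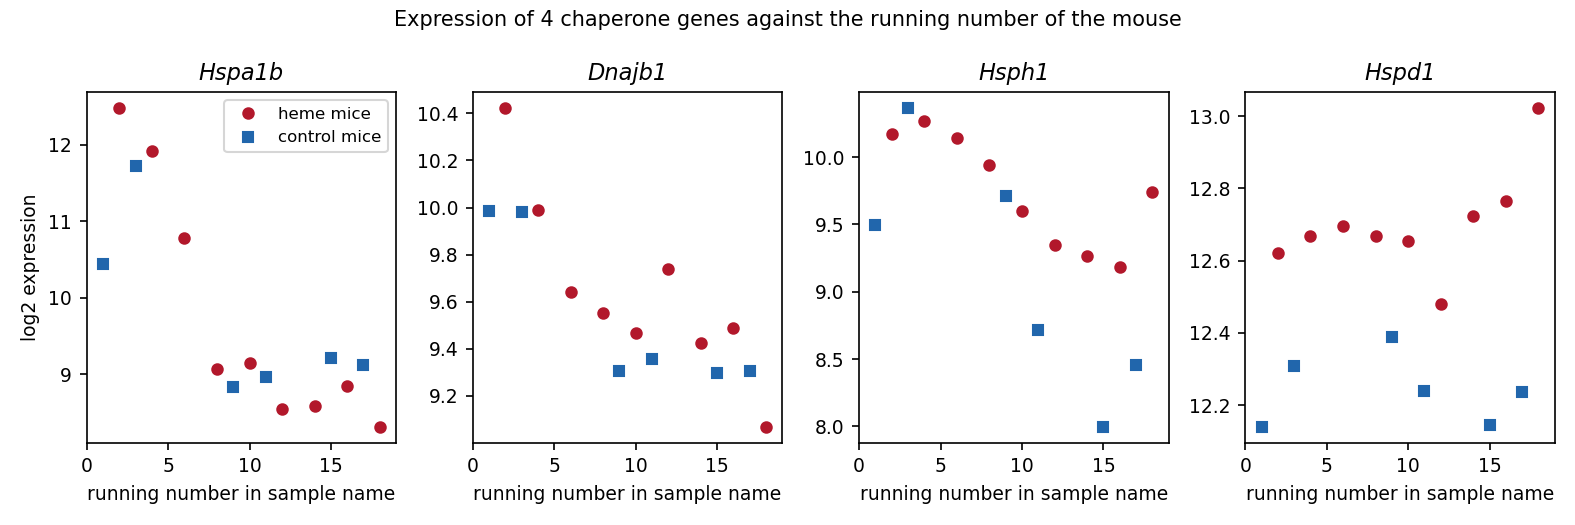
Log2 expression of 4 chaperone genes in each mouse against the running number in its sample name, with circles for 9 heme and squares for 6 control mice. Hspa1b is above 10.4 in all 5 mice numbered up to 6 and below 9.3 in the 10 others in both groups, while Hspd1 keeps the diet groups apart over the whole range.

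In the ER 7 of 15 members rose, 1 fell and 7 did not pass. That is 46.7% higher and 6.67% lower, beside 27.2% and 26.4% of all tested genes. Sdf2l1, a small ER protein that works with the DnaJ protein Dnajb11, ranged from 7.39 to 8.17 (median 7.65) in heme mice, against 6.42 to 7.47 (median 6.77) in control mice. Of the 9 heme mice 7 lay above all controls. The difference was 0.81 ± 0.16 (adjusted p = 6.05e-04).

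Creld2, an ER protein with disulfide isomerase activity, ranged from 9.57 to 10.15 (median 9.78) in heme mice, against 8.89 to 9.99 (median 9.14) in control mice. Control 2 at 9.99 was the single control mouse that reached into the range of the heme mice. The difference was 0.50 ± 0.15 (adjusted p = 0.00998), and with the replicate number as a block Creld2 did not pass (0.41, adjusted p = 0.0729). Pdia3, the disulfide isomerase that folds glycoproteins with calnexin and calreticulin, ranged from 11.93 to 12.41 (median 12.26) in heme mice, against 11.25 to 12.13 (median 11.83) in control mice. Again 7 of 9 heme mice lay above all controls, and the difference was 0.44 ± 0.12 (adjusted p = 0.00505).

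The other 4 that rose did so by less. The disulfide isomerase Pdia4 averaged 7.31 ± 0.27 in heme mice and 6.94 ± 0.27 in control mice, a difference of 0.37 ± 0.13 (adjusted p = 0.0291). Manf, a secreted and ER-resident protein that binds Hspa5, averaged 11.56 ± 0.16 in heme mice and 11.26 ± 0.28 in control mice (0.30 ± 0.11, adjusted p = 0.0260). Hsp90b1, the ER Hsp90 also called Grp94, averaged 12.76 ± 0.16 in heme mice and 12.53 ± 0.14 in control mice (0.23 ± 0.08, adjusted p = 0.0222). For Dnajb11 the averages were 9.88 ± 0.16 in heme mice and 9.66 ± 0.10 in control mice (0.21 ± 0.08, adjusted p = 0.0269). For each of these 4 genes the groups overlapped, and leaving out single mice ended the call. Pdia4 no longer passed without control 1 (0.32), control 6 (0.28) or heme 5 (0.34), and Manf without control 4 (0.23), control 6 (0.27) or control 7 (0.27). Hsp90b1 no longer passed without control 1 (0.21) or control 4 (0.20), and Dnajb11 without control 4 (0.18). Other settings ended calls too: Hsp90b1 did not pass on its second probe set (0.30, adjusted p = 0.0512) or with quantile normalization (0.19, adjusted p = 0.0544). In the fit that holds the smooth muscle score Pdia4 (0.36, adjusted p = 0.161) and Dnajb11 (0.20, adjusted p = 0.167) did not pass. With the replicate number as a block none of the 4 passed, at differences of 0.15 to 0.27 (adjusted p = 0.113 to 0.190). Without control 4, which is low in distal Hox genes, 4 ER members rose and 3 fell.

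Dnajb9, a DnaJ protein known in rodent cells to hold the sensor IRE1 in its inactive form, was the ER member that fell. It ranged from 10.01 to 10.37 (median 10.24) in heme mice, against 10.25 to 10.54 (median 10.42) in control mice. Only 6 of 9 heme mice lay below all controls. The difference was -0.16 ± 0.06 (adjusted p = 0.0379), and the call held in 13 of the 29 other settings tried. Leaving out any 1 of 8 mice ended it, at differences of -0.16 to -0.14.

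Hspa5, the central ER Hsp70, did not pass the test at 0.21 ± 0.12 (adjusted p = 0.136). It ranged from 12.39 to 12.97 (median 12.64) in heme mice, against 12.05 to 12.77 (median 12.49) in control mice, and 2 heme mice lay above all controls. With the mean of its probe sets the difference was 0.30 (adjusted p = 0.0208), past the threshold. Hyou1, the ER exchange factor for Hspa5, differed by 0.26 ± 0.16 (adjusted p = 0.202). The disulfide isomerase Pdia6 differed by 0.15 ± 0.09 (adjusted p = 0.182), and without control 3 by 0.24 (adjusted p = 0.0183), past the threshold. The second Hyou1 probe set gave 0.47 (adjusted p = 0.0264), also past the threshold.

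Neither lectin chaperone passed the test. Calr differed by 0.08 ± 0.08 (adjusted p = 0.444), and Canx by -0.11 ± 0.05 (adjusted p = 0.0629). Dnajc3, an inhibitor of the kinase PERK, differed by -0.13 ± 0.06 (adjusted p = 0.0897), and its 5 probe sets over the floor ran from -0.18 to 0.17. Herpud1, which scaffolds the disposal of misfolded ER proteins, differed by -0.18 ± 0.10 (adjusted p = 0.129). Dnajc3 and Herpud1 passed as lower without control 4 (-0.16 and -0.25), Dnajc3 also without heme 6 (-0.15), and Canx without control 7 (-0.12).

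ER members with and without the ERSE or ERSE-II letters were found among those that rose. Over all tested genes 27.2% were higher and 26.4% lower. Of 9 ER members with either element, 3 rose (Creld2, Hsp90b1 and Dnajb11), 0 fell and 6 did not pass, with a median difference of 0.15. The 4 ER members whose window held neither were Sdf2l1, Pdia3 and Pdia4, which rose, and Dnajb9, which fell, with a median of 0.40. Absence of these letters from a 300-base window says nothing on elements elsewhere or of other spelling.

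Of 14 ER members set against Hspa5 in heme mice, r ran from -0.35 (Dnajc3) to 0.909 (Manf), and only Manf passed by Pearson's r. It followed Hspa5 across the 9 heme mice (Pearson r = 0.909, exact permutation p = 7.74e-04, adjusted over 40 relations p = 0.0310; Spearman rho = 0.917, adjusted p = 0.0525). Without the 2 mice farthest from the median of Hspa5, r was 0.706. In the 6 control mice r was 0.978 (exact permutation p = 0.00417, adjusted p = 0.0556) and rho was 1 (adjusted p = 0.0556).

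Dnajb1 followed Hspa1b across the heme mice with r = 0.861 (exact permutation p = 0.00180, adjusted p = 0.0360) and rho = 0.70 (adjusted p = 0.194). Without the 2 mice farthest from the median of Hspa1b, r was 0.454, so the relation rests on those mice. They are heme 1 and heme 2, with running numbers 2 and 4, and both genes had a called trend with that number. Whether the relation is separate from that trend was not tested. The Pearson correlations of Manf and Dnajb1 were the 2 that passed among the 40 computed. These were 28 of ER members with Hspa5 and 12 of cytosolic members with Hspa1b, within each diet. Creld2 with Hspa5 reached r = 0.755 in heme mice (exact permutation p = 0.0142, adjusted p = 0.113).

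Among the transcription factors 0 rose and 2 fell of 4 tested (0% and 50%, beside 27.2% and 26.4% of all tested genes). Xbp1, the factor whose RNA is spliced by IRE1, ranged from 11.36 to 11.74 (median 11.56) in heme mice, against 11.64 to 12.14 (median 11.82) in control mice. All but 1 heme mouse lay below all controls. The difference was -0.30 ± 0.07 (adjusted p = 0.00325), and its 3 probe sets over the floor gave -0.30 to -0.21. With the mean of all its probe sets Xbp1 no longer passed (-0.18, adjusted p = 0.0672), but that mean takes in a probe set over the floor on 0 arrays (0.06). It did not pass either without the 5 mice numbered 1 to 6 (-0.22, adjusted p = 0.0565). The arrays do not tell spliced from unspliced Xbp1 RNA.

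Atf6, the sensor that becomes a transcription factor when cleaved, ranged from 7.96 to 8.54 (median 8.40) in heme mice, against 8.40 to 8.90 (median 8.71) in control mice. The difference was -0.35 ± 0.10 (adjusted p = 0.00671). Its 3 probe sets over the floor did not give 1 direction: they ran from -0.35 to 0.39, the second gave -0.06 (adjusted p = 0.526) and their mean -0.01. The call rests on the brightest probe set.

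Atf4, which raises amino acid and stress genes, averaged 9.91 ± 0.12 in heme mice and 9.78 ± 0.05 in control mice. The difference of 0.13 ± 0.06 did not pass (adjusted p = 0.0800), although 7 of 9 heme mice lay above all controls. Its second probe set gave 0.37 (adjusted p = 0.0295), and without heme 5 the first gave 0.15 (adjusted p = 0.0495), both past the threshold. Ddit3, the CHOP factor of prolonged ER stress, differed by -0.05 ± 0.14 (adjusted p = 0.785), with a 95% interval of -0.36 to 0.25. Trib3 and Chac1, both known as targets of Atf4 and Ddit3, were under the floor on all 15 arrays. Their averages were 2.87 ± 0.18 in heme mice and 2.69 ± 0.18 in control mice for Trib3, and 3.76 ± 0.17 in heme mice and 3.11 ± 0.28 in control mice for Chac1, for which no fold is given.

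Other genes of the same pathways are given as counts over lists, with the called gene of the largest rise and the largest fall named for each. The share of each list that rose and fell stands beside 27.2% of all tested genes higher and 26.4% lower. Of 12 stress sensor and eIF2alpha control genes 3 rose and 5 fell (25% and 41.7%, median difference -0.01). Mbtps2, a protease that cleaves ATF6, rose by 0.39 ± 0.07, and Ern2, the IRE1 form of mucosal epithelia, fell by 0.72 on the log2 scale (9.22 ± 0.15 in heme mice, 9.94 ± 0.22 in control mice). Named after their values were seen, the other 4 that fell were Ern1 (-0.49), the PERK gene Eif2ak3 (-0.25, adjusted p = 0.0391), the ATF6 protease Mbtps1 (-0.29) and Creb3l1 (-0.68). The other 2 that rose were Ppp1r15a (0.36) and Ppp1r15b (0.29), whose products direct dephosphorylation of eIF2alpha. Eif2ak1, the eIF2alpha kinase that heme inhibits, differed by 0.02 ± 0.06 (adjusted p = 0.771).

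Of 14 other known ATF4 targets 12 rose and 2 fell (85.7% and 14.3%, median difference 0.72), where 27.2% and 26.4% of all tested genes did. Phgdh, the first enzyme of serine synthesis, averaged 9.00 ± 0.51 in heme mice and 6.78 ± 0.51 in control mice, a difference of 2.217 ± 0.246 (adjusted p = 3.59e-06). Nupr1, a small stress-induced nuclear protein, fell by 0.94 on the log2 scale (adjusted p = 7.44e-04). For 8 of the 14 all heme mice lay above all control mice, where this held for 11.2% of all tested genes. Several of these genes are also regulated by other factors, and what raised them was not tested.

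The remaining ER lists held calls in both directions. Of 20 other ER folding genes 6 rose and 5 fell (30% and 25%, median difference 0.05), near the shares of all tested genes. The prolyl isomerase Fkbp11 rose by 1.10 ± 0.17, and Fkbp14, of the same family, differed by -0.67 ± 0.10 and was over the floor in 4 of 9 heme mice. Of 16 genes of ER-associated degradation 6 rose and 3 fell (37.5% and 18.75%, median difference 0.08). Among them the ubiquitin-conjugating enzyme Ube2j1 rose by 0.53 ± 0.07 and the lectin Erlec1 fell by 0.36 on the log2 scale. Of 17 translocon genes, which pass new proteins into the ER, 6 rose and 2 fell (35.3% and 11.8%, median difference 0.11). Ssr2 differed by 0.44 ± 0.07 and Sec62 by -0.32 ± 0.08.

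The cytosolic and mitochondrial lists had more rises than falls. Of 20 other cytosolic chaperones and cochaperones 10 rose and 2 fell (50% and 10%, median difference 0.27). Stip1, which hands client proteins from Hsp70 to Hsp90, averaged 9.01 ± 0.22 in heme mice and 8.09 ± 0.30 in control mice (0.91 ± 0.13, adjusted p = 2.82e-05). Dnaja4 fell by 1.03 on the log2 scale and was over the floor in 5 of 9 heme mice and all 6 control mice.

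Of 14 genes of the chaperonin TRiC and of prefoldin, which fold actin and tubulin, 7 rose and 1 fell (50% and 7.14%, median difference 0.12). Pfdn4 differed by 0.58 ± 0.09 and Pfdn5 by -0.41 ± 0.07. Of 15 other mitochondrial chaperones and proteases 9 rose and 1 fell (60% and 6.67%, median difference 0.17). Grpel1, the nucleotide exchange factor of Hspa9, differed by 0.50 ± 0.06 (adjusted p = 5.65e-06), and Hscb, a cochaperone of iron-sulfur cluster assembly, by -0.42 ± 0.14 (adjusted p = 0.0209).

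**Figure D4:**
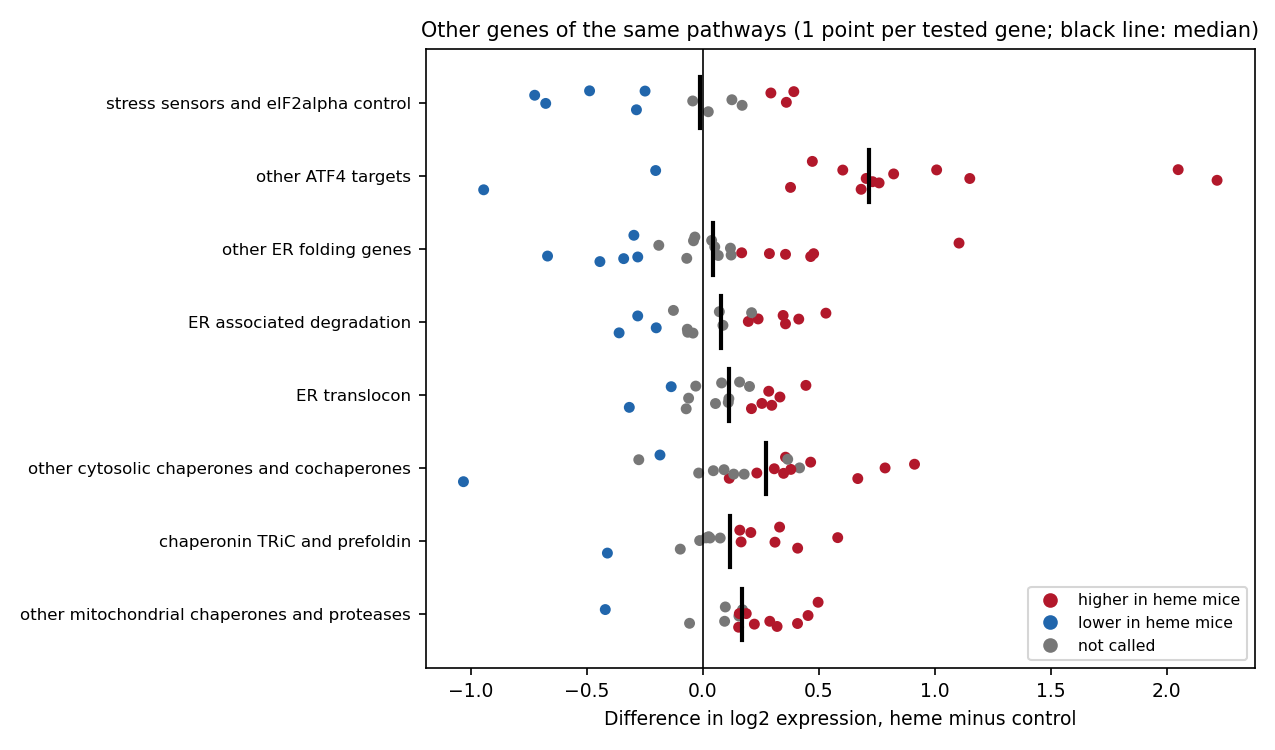
Difference in log2 expression, heme minus control, for each tested gene of 8 lists of the same pathways, with a black line at each list's median. The ATF4 target list is farthest to the right with a median of 0.72, and the sensor list is centred near 0 at -0.01.

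Markers of cell types moved with the diet as well. Their counts stand beside 27.2% of all tested genes higher and 26.4% lower. All 6 dividing cell markers rose, and their summed level was 12.13 to 12.54 in heme mice against 10.94 to 11.74 in control mice, with no overlap. With their mean as a covariate 0 of the 16 member calls remained, and 155 and 150 of all tested genes were higher and lower. The fitted differences of the 13 members that had risen ran from 0.26 to 0.93 in that fit, such as 0.51 for Hspa4 (adjusted p = 0.0554), 0.93 for Bag3, 0.46 for Hspd1, 0.43 for Hspe1 and 0.32 for Hspa9. Those of the 3 that had fallen were -0.23 for Dnajb9, -0.10 for Xbp1 and -0.09 for Atf6. Since this score separates the groups completely, it and the diet cannot be told apart here. Of 8 goblet cell markers 5 fell and 1 rose, with sums of 16.50 to 16.70 in heme mice and 16.66 to 16.92 in control mice. With the goblet score as a covariate 8 ER members rose and 0 fell. All 4 tested smooth muscle markers fell, with sums over the 8 listed of 8.37 to 9.80 in heme mice and 9.21 to 12.49 in control mice. With that score as a covariate 12 members rose and 0 fell, and Xbp1 (-0.16), Atf6 (-0.32) and Dnajb9 (-0.08) no longer passed. Of 6 enteroendocrine markers 3 fell, with sums of 12.16 to 12.52 in heme mice and 12.95 to 13.48 in control mice. The 1 tested of 6 T cell markers, Gzma, fell, with sums over the 6 of 5.48 to 5.93 in heme mice and 7.21 to 8.34 in control mice. Gzma was over the floor in all 6 control mice but in 1 of 9 heme mice, so it entered the test through the higher group. The other T cell markers were over the floor on 0 or 1 arrays, so these sums say little on T cells. Of 6 interferon response genes 5 fell, with sums of 10.56 to 12.55 in heme mice and 11.57 to 11.87 in control mice. The part of these 3 cell and response signals in the member results was not tested. Of 3 tested plasma cell markers, cells rich in ER, 0 passed, with sums of 12.20 to 12.95 in heme mice and 12.03 to 13.44 in control mice. Without the 3 mice that stand apart 13 members rose and 3 fell, but not the same ones. Hsph1 (0.88, adjusted p = 0.0291) and Dnajc3 (-0.16, adjusted p = 0.0467) then passed, and Dnajb11 (0.19, adjusted p = 0.0705) and Dnajb9 (-0.14, adjusted p = 0.132) did not.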

How the data were processed

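Colon RNA of 15 mice was measured on 1 mouse array each. The deposited matrix holds 1 log2 value per probe set and array, which the authors computed with GCRMA 2.22.0 per the submitters' processing notes. GCRMA corrects background, normalizes between arrays and summarises probes, and no detection calls were used. Of 45101 probe sets the 34958 with 1 symbol were used. The 932 with several symbols and 9211 without an annotation entry were left out.

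Differences are heme minus control from lmFit and eBayes over 9257 genes (limma 3.58.1, R 4.3.3), with Benjamini-Hochberg adjustment at 0.05. The procedure was tested on simulated data. Correlations used exact two-sided permutation tests in Python 3.11.15. Promoters came from RefSeq (GRCm38.p6), and both strands were searched. Summed levels are log2 of summed signals.

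Named were all members, from each pathway list the called genes with the largest rise and fall, and Hmox1. Any other gene was named after its values were seen. Pathway and marker lists matched 211 of 223 genes, and Hspa13 is in 2 lists. Members and lists were chosen with earlier results of these data known. Alternatives were a filter (none, or a floor of 100), other probe sets, scaling, variance settings, array weights, covariates, a replicate block and leaving out mice. The mean of all probe sets of a gene took in those under the floor. The main fit did not treat replicate numbers as pairs.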

Additional observations from a re-analysis of the deposited data

Results flagged for a closer look

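Single mice lay far from the rest of their group for 6 of the members, by the size of the gap to the nearest other mouse within the group's range. Chance alone gives such a mouse in about 1 in 20 groups, and 2 groups were examined for each of 33 members. Heme 9 was the highest heme mouse for Hsp90aa1 at 13.03, where the next mouse was at 12.58. It was also the highest for Hsp90b1 at 13.13 (next 12.81), for Hspe1 at 12.18 (next 11.93) and for Hspb1 at 4.66 (next 3.94). Control 2 was the highest control mouse for Hspb1 at 6.56, where the next was at 4.63. Heme 8 was the lowest heme mouse for Dnajb9 at 10.01 (next 10.21), and control 3 the highest control mouse for Pdia6 at 10.70 (next 10.28). Without control 3 the Pdia6 difference was 0.24 (adjusted p = 0.0183, limma), past the threshold, and without heme 8 that of Dnajb9 was -0.14 (adjusted p = 0.0583), no longer past it.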

How the results depend on the processing

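With each mouse left out in turn, the 3 mitochondrial chaperones stayed higher. Over all members 10 to 14 were higher and 2 to 5 lower, the 5 without control 4. Of ER members 4 to 8 were higher and 0 to 3 lower, and of transcription factors 0 to 1 were higher and 2 lower. Of 3 members lower, the smooth muscle and dividing cell covariates each left 0, and averaging all probe sets and leaving out the mice numbered 1 to 6 (an alternative added after the data were seen) each left 1. The 1 ER member lower became 0 with no filter, median centring, the block, the smooth muscle, goblet or dividing cell covariate or without mice 1 to 6, and 2 with quantile normalization or trend and robust variance. With the replicate number as a block, 5 cytosolic and 2 ER members were higher. Over all tested genes the 6 same-numbered pairs had correlations of -0.19 to 0.20. Replicate numbers rise with the running number within each group, and whether same-numbered mice share a factor was not settled by these correlations. The dividing cell covariate left 0 members higher in any compartment, and 155 and 150 of all tested genes higher and lower, against 2516 and 2445. Without a filter 1 cytosolic member was lower and 1 transcription factor higher. Of 2 transcription factors lower, 1 was left with second probe sets or without mice 1 to 6 and 0 with mean probe sets, the smooth muscle or the dividing cell covariate, and 1 was higher with mean or second probe sets.

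Members that changed sign had not passed the test. With the dividing cell covariate these were Hspa1b (-0.86), Hspa8 (0.22), Dnajb1 (-0.12), Herpud1 (0.13) and Atf4 (-0.010). Hspa1b was -0.28 without mice 1 to 6 and -0.31 to 0.43 without 1 mouse. Hspa8 was 0.23 with mean probe sets, 0.0037 with array weights, 0.029 with the block and 0.0050 with the smooth muscle covariate. Dnajc3 was 0.015 with mean and 0.17 with second probe sets, and Canx 0.034 with the second. Ddit3 was 0.070 without the 3 mice apart, 0.059 with the smooth muscle covariate and -0.11 to 0.0068 without 1 mouse. The causes were not tested. Low signal limits Hspa1a, Hspb1, Trib3 and Chac1. Of 16 called members 0 passed in all settings. The dividing cell covariate, which separates the diets, ended every call, with fitted differences of 0.26 to 0.93 for the 13 that had been higher.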

Other observations

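Beside Hspa1b and Dnajb1, other genes changed with the running number. The 39 genes with a called trend, 13 upward and 26 downward, included clock genes in both directions, named here after their values were seen. Per3 changed by 0.138 ± 0.019 per number (log2, SE, adjusted p = 0.0147, limma) and Dbp by 0.242 ± 0.038 (adjusted p = 0.0195), with Tef, Nr1d1 and Nr1d2 also upward. Downward were Arntl at -0.105 ± 0.015 (adjusted p = 0.0147), Npas2 at -0.086 and Cry1 at -0.077. The clock genes are known to cycle with the time of day, which the labels do not give.

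Also downward were the Hsp70 partner Dnaja1 at -0.058 ± 0.009 per number (adjusted p = 0.0195) and the Hsp90 cochaperone Chordc1 at -0.057 ± 0.010 (adjusted p = 0.0303). Sgk1, a kinase induced by glucocorticoids, lay between 12.37 and 12.76 in the 5 mice numbered 1 to 6 and between 10.93 and 12.03 in the 10 later ones, at -0.083 ± 0.014 per number. The stress factor Atf3 changed by -0.082 ± 0.016 per number (adjusted p = 0.0358).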
